A study of Mus musculus with 2 samples.

Results

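The genes described here are *Chat*, *Slc5a7*, *Slc18a3*, *Ache*, *Isl1* and *Prph*, which make, move and break down acetylcholine or mark motor neurons. The rule lists them by name and uses no measured value, and they are 6 of the 25556 genes in the deposited count table. Earlier results of these data were known when the genes were chosen. They were followed across the 16 clusters and 34 subclusters deposited with the nuclei and across both genotypes, to find which subclusters hold cholinergic nuclei. Single-nucleus RNA-seq (10x Chromium 3′ v3.1) had been run on the brainstem of 1 wild-type (WT) and 1 heterozygous (HET) mouse, both female and both at postnatal day 41. The HET mouse carried *Scn1a* A1783V/WT, a knock-in missense allele of the gene for the alpha subunit of a voltage-gated sodium channel, and serves as a model of Dravet Syndrome. Offspring came from a floxed stop *Scn1a* A1783V male and a *Sox2-cre* female on a C57BL/6J background. *Sox2-cre* acts in the early embryo, so the allele is not limited to 1 cell type, and whether the WT mouse carried the Cre transgene is not given in the sources used here. With 1 library per genotype there is no replicate and no test: a difference between the libraries cannot be told apart from a difference between 2 mice, 2 dissections or 2 library preparations.

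Acetylcholine is made from choline and acetyl-CoA by choline acetyltransferase (*Chat*). Neurons that release it recover choline from the synapse through the high-affinity choline transporter (*Slc5a7*), load the transmitter into vesicles through the vesicular acetylcholine transporter (*Slc18a3*), and end its action with acetylcholinesterase (*Ache*). In the brainstem it is the transmitter of the motor neurons of the cranial nerve nuclei, which drive muscles and parasympathetic ganglia, and of the pedunculopontine and laterodorsal tegmental neurons. *Isl1* encodes a LIM-homeodomain transcription factor of motor neurons, and *Prph* encodes peripherin, an intermediate filament of neurons whose axons leave the brain and spinal cord.

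The unit of all counts is the unique molecular identifier (UMI), 1 per captured RNA molecule, and levels are given as CPM, the UMIs of a gene scaled to a total of 1000000 UMIs in a library or set of nuclei. The WT library held 70301390 UMIs in 9259 nuclei and the HET library 66176778 UMIs in 9022 nuclei, with medians of 5456 and 5646 UMIs per nucleus. *Scn1a* stood at 380 CPM in the WT and 420 CPM in the HET library, and since the allele changes the protein and not the presence of the RNA, these counts do not check the genotype. The 2 libraries shared 23 cell barcodes, none of them in a nucleus called cholinergic below. Intervals are exact 95% Poisson, binomial (Clopper-Pearson) or ratio intervals and cover counting error only.

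In the GENCODE vM21 annotation of GRCm38, *Chat* lies on chromosome 14 (chr14:32408203-32465989, minus strand, 16 exons). *Slc18a3* is a gene of 1 exon at chr14:32462438-32464850 on the same strand, wholly inside the first intron of *Chat* (chr14:32460914-32465806, 4893 bases), with 0 bases in *Chat* exons. Nuclear RNA holds unspliced *Chat* transcripts, so reads in this stretch can come from either gene, and the *Slc18a3* counts are uncertain for that reason. *Slc5a7* lies at chr17:54273590-54299034 (minus strand, 9 exons), *Ache* at chr5:137287519-137294466 (plus strand, 5 exons), *Isl1* at chr13:116298281-116309689 (minus strand, 6 exons) and *Prph* at chr15:99055174-99058978 (plus strand, 9 exons).

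The stretches just upstream of 5 of these genes are printed because the RNAs of the 5 were counted together in the same nuclei. They come from RefSeq promoters of GRCm38.p6, reach up to 250 bases before the start, and leave out bases that lie in annotated exons of the same strand, which removed the whole window of *Ache*. Capitals mark TAAT on either strand, the core bound by many homeodomain proteins, and TATAAA on either strand, the TATA box. No match of one overlapped a match of the other.
*Chat*, chr14:32465990-32466159, minus strand: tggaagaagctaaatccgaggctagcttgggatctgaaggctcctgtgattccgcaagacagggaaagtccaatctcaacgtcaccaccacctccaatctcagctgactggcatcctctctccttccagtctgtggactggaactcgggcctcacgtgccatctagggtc
*Slc5a7*, chr17:54299035-54299284, minus strand: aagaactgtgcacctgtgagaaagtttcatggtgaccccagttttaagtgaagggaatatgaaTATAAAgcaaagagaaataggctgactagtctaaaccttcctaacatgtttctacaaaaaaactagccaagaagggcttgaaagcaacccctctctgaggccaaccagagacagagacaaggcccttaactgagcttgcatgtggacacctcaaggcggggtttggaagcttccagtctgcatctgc
*Slc18a3*, chr14:32464851-32465100, minus strand, within the first intron of *Chat*: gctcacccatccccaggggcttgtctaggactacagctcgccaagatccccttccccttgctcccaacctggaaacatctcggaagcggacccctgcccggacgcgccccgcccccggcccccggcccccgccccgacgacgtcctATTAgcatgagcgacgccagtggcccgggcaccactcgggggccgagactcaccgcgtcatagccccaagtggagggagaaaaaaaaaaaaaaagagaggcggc
*Isl1*, chr13:116309690-116309938, minus strand: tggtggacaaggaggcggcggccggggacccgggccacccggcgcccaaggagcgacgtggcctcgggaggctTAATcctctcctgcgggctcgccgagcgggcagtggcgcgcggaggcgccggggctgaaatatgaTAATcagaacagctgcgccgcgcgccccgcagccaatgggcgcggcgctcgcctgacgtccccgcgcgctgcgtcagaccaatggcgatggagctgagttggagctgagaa
*Prph*, chr15:99054924-99055173, plus strand: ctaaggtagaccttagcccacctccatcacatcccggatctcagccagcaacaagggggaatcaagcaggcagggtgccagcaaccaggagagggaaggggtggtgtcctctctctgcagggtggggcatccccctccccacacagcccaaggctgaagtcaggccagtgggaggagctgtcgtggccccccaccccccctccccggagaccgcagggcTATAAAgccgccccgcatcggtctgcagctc

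TAAT was found 2 times upstream of *Isl1* and 1 time upstream of *Slc18a3*, and TATAAA 1 time each upstream of *Slc5a7* and *Prph*. Of 32851 mouse promoters cut to 250 bases, 54.9% held TAAT and 12.4% held TATAAA. The 170 bases upstream of *Chat* held neither, against 41.6% and 8.40% of all promoters at that length. The *Slc5a7* stretch was 45.6% G and C, and those of *Isl1*, *Slc18a3* and *Prph* were 71.1%, 66.0% and 65.2%, where all promoters together came to 53.2%. These are letters in a window and say nothing of binding.

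The genes for synthesis, uptake and packaging of acetylcholine and the motor neuron genes were highest in 1 small cluster, neuron.8, whereas *Ache* was spread over all clusters. *Chat* stood at 158 CPM in neuron.8 (139 to 180, 244 UMIs), at 151 CPM in WT and 200.9 CPM in HET. The next cluster in order was neuron.1, by far the largest, at 4.90 CPM (4.45 to 5.38), and from there down each cluster's interval overlapped that of its neighbour. No UMI of *Chat* was found in epend.1, epend.2, neuron.5 or neuron.9.

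*Slc5a7* stood at 243 CPM in neuron.8 (219 to 269), at 241 CPM in WT and 251 CPM in HET. The following clusters were neuron.9 at 10.8 CPM, which is 1 UMI, endo at 9.97 CPM and neuron.1 at 8.40 CPM, each overlapping its neighbour. *Slc18a3* was sparse, with 80 UMIs in all nuclei, and its 7.79 CPM in neuron.8 (4.03 to 13.6, 12 UMIs) overlapped the interval of the next cluster, epend.1 at 3.07 CPM, so its order over clusters was not resolved at this depth.

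*Isl1* stood at 65.6 CPM in neuron.8 (53.4 to 79.7), where WT gave 68.4 CPM and HET 50.2 CPM, and at no more than 1.12 CPM in any other cluster. *Prph* stood at 214 CPM in neuron.8 (192 to 239), at 221 CPM in WT and 176 CPM in HET. *Prph* was also found at 22.8 CPM in neuron.6 (16.2 to 31.2, 39 UMIs) and at 53.9 CPM in neuron.9 (17.5 to 126, 5 UMIs), in clusters where *Chat* and *Slc5a7* together gave 3 UMIs and 1 UMI.

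*Ache* ran from 43.5 CPM in neuron.7 to 16.9 CPM in epend.1. Its level in neuron.8 was 27.3 CPM (19.7 to 36.9), rank 5 of the 16 clusters and with an interval that overlapped both neighbours. The only break between neighbours in the order of the 16 clusters lay between neuron.1 at 38.1 CPM (36.8 to 39.4) and neuron.2 at 31.5 CPM (27.1 to 36.6). *Ache* was not used to find cholinergic nuclei.

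**Figure D1:**
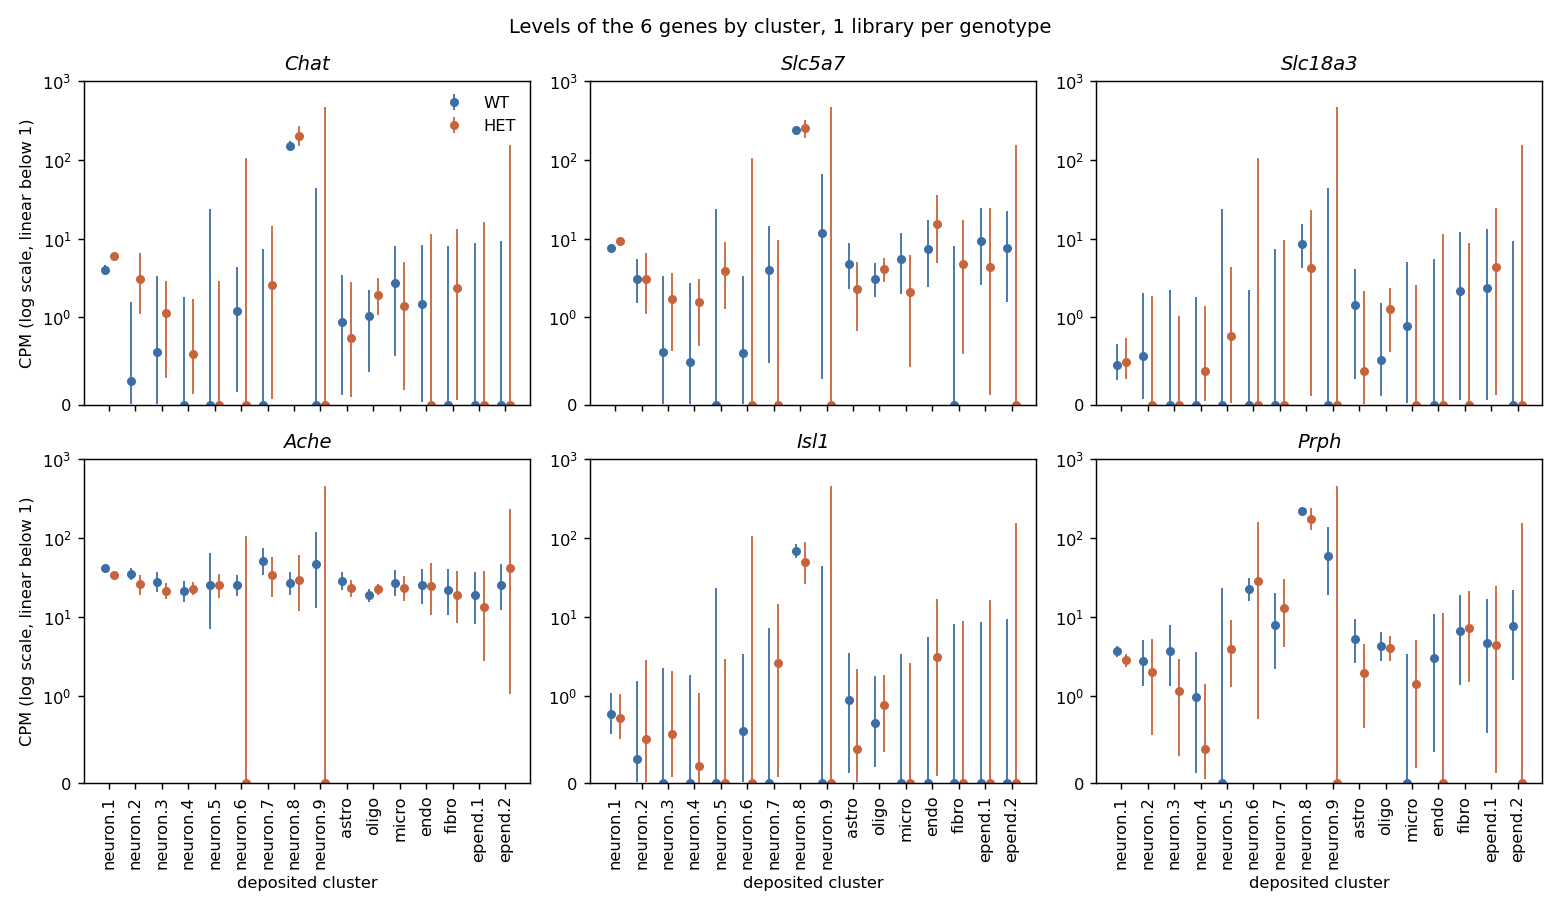
Level of each of the 6 genes (CPM, on a log scale that is linear below 1) in the 16 deposited clusters, WT in blue and HET in orange, with 95% counting intervals and 1 library per point. In neuron.8 *Chat*, *Slc5a7*, *Isl1* and *Prph* lie between 50.2 and 251 CPM in both libraries, while *Ache* lies near the same level in most clusters.

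The 53 nuclei of neuron.8, out of 18281, are also 1 deposited subcluster, number 31. They held 33.4% of all UMIs of *Chat*, 29.7% of *Slc5a7*, 15% of *Slc18a3*, 52.9% of *Isl1* and 41.5% of *Prph*, but 0.925% of *Ache*. Of 803 nuclei with a UMI of *Chat*, *Slc5a7* or *Slc18a3*, 661 had only 1 of the 3 genes, 142 had at least 2 and 19 had all 3.

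Free RNA in the droplets gives a low count of any gene in nuclei that do not express it, so nuclei with 1 of the genes were compared with 5736 nuclei to which the cluster name and the reference label both gave one non-neuronal type. *Chat* had a UMI in 1.53% of the neuronal nuclei that were not cholinergic (median depth 7997 UMIs) and in 0.436% of the non-neuronal nuclei (median depth 2835 UMIs). Thinned to 1000 UMIs per nucleus, these became 0.231% (0.151 to 0.338) and 0.116% (0.0453 to 0.243). For *Slc5a7* they became 0.471% and 0.406%, for *Isl1* 0.0527% and 0.0865%, for *Slc18a3* 0.0432% and 0.0930%, and for *Prph* 0.271% and 0.445%. At equal depth none of these 5 genes was above the non-neuronal share beyond counting error over the pooled neuronal nuclei that were not cholinergic. The rule given below had already taken the cholinergic nuclei out of that pool, so the comparison cannot justify the rule. With them left in, *Chat* came to 0.437% (0.325 to 0.575) after thinning. In the remaining nuclei, single UMIs of *Chat*, *Slc5a7* and *Slc18a3* could not be told apart from background. The pooled share does not speak for each cluster: *Prph* was at 22.8 CPM in neuron.6, with UMIs in 29 of its 125 nuclei, and at 3.83 CPM (3.0 to 4.81) in the non-neuronal nuclei. *Ache* was the exception, at 4.1% (3.74 to 4.48) against 2.34% (1.97 to 2.77) after thinning.

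A nucleus was taken as cholinergic when it held UMIs of at least 2 of *Chat*, *Slc5a7* and *Slc18a3*. None of the 5736 non-neuronal nuclei met this rule, which allows a share of up to 0.0523%. It was met by 142 nuclei, 88 of the WT and 54 of the HET library, of which 141 lay in neuronal clusters and 1 in the cluster named micro. In 6 of the 34 subclusters the interval of the share lay wholly above the upper bound in non-neuronal nuclei, 0.0643%, and these held 140 of the 142.

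Subcluster 31 was the only one made mainly of cholinergic nuclei, 50 of 53 or 94.3% (84.3 to 98.8). Subcluster 0 held 42 of its 2864 nuclei (1.47%, 1.06 to 1.98), subcluster 3 held 18 of 1498 (1.20%), subcluster 5 held 11 of 934 (1.18%), subcluster 1 held 10 of 2225 (0.449%) and subcluster 10 held 9 of 611 (1.47%). The remaining 2 nuclei were in subclusters 13 and 18. After thinning to 1000 UMIs, subcluster 31 at 3.89% (0.497 to 13.1) was the only one whose interval still lay above that bound, so the calls in the other 5 rest on the full depth.

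**Figure D2:**
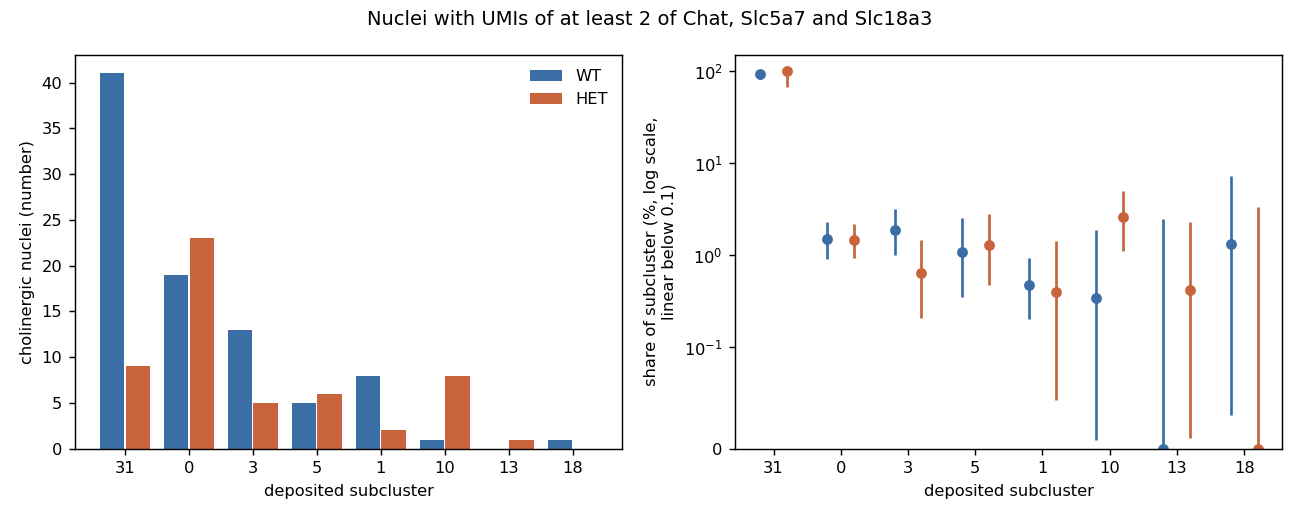
Cholinergic nuclei in the 8 subclusters with at least 1 of them, as numbers (left, bars from 0) and as a share of the subcluster in percent (right, log scale that is linear below 0.1, with 95% binomial intervals), WT in blue and HET in orange. Subcluster 31 gave 41 WT and 9 HET nuclei, subcluster 0 gave 19 and 23, and subcluster 10 gave 1 and 8.

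The rule finds deep nuclei more readily, since it asks for UMIs of 2 sparse genes. The median depth of cholinergic nuclei was 28661.5 UMIs in subcluster 31 and 11930 UMIs outside it, against 7997 UMIs in the other neuronal nuclei. Their median deposited doublet score was 0.331 in subcluster 31 and 0.235 outside it, against 0.155 in the other neuronal nuclei, although each deposited nucleus carries the call Singlet. Without the 5% of nuclei with the highest scores in each library, 26 of the 50 in subcluster 31 remained, 24 WT and 2 HET. The defining genes of other classes were low in those 50 nuclei: summed over all 50, the excitatory *Slc17a7* and *Slc17a8* had 0 UMIs and *Slc17a6* had 5, *Gad1* and *Gad2* had 5 and 4, and the astrocyte gene *Aqp4* had 2. *P2ry12*, a microglial receptor gene, was at 136 CPM there and at 132 CPM in the other neuronal nuclei.

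Several motor neuron genes not used to call the nuclei were high in subcluster 31, described here as motor-neuron-like, though a few stood as high in subcluster 1. *Isl1* had a UMI in 42 of the 50 cholinergic nuclei of subcluster 31 and *Prph* in 49. Of the 50, 41 held both and none lacked both. *Isl1* was at 67.0 CPM against 0.519 CPM in the other neuronal nuclei, and *Prph* at 217 against 2.64 CPM. The subclusters had been made from these same counts, so what follows describes subcluster 31 and tests nothing.

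A motor neuron list of 18 genes was chosen with earlier results of these data known, so its counts are no independent support for the name. Of the 18 genes, 11 were high enough in the other neuronal nuclei for at least 3 UMIs to be awaited in the 50 nuclei. Of these, 10 were at least 1.5-fold higher in subcluster 31 and 0 were at least 1.5-fold lower, with a median of 5.37-fold. Over the 14969 genes with such a level, 9.68% were that much higher, 32.4% that much lower, and the median was 0.824-fold. The neurofilament genes *Nefm*, *Nefl* and *Nefh* stood at 530, 196 and 73.1 CPM against 153, 74.8 and 33.2 CPM in the other neuronal nuclei. *Gfra1*, a co-receptor for the growth factor GDNF, stood at 296 against 54.1 CPM, and *Ret*, its signalling partner, at 43.6 against 10.1 CPM. *Tns1*, *Bcl6* and *Lhx4* stood at 168, 69.1 and 31.5 CPM, against 8.0, 5.21 and 2.40 CPM. *Spp1* was the member of the 11 that did not pass 1.5-fold, at 36.2 against 34.0 CPM.

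*Calcb* and *Calca* encode the calcitonin gene-related peptides, which motor neurons release at muscle. *Calcb* stood at 63.7 CPM in 35 of the 50 nuclei and *Calca* at 26.8 CPM in 20, against 0.955 and 5.00 CPM in the other neuronal nuclei. *Chodl*, a gene of fast motor neurons, stood at 118 CPM against 1.59 CPM. *Mnx1*, *Isl2* and *Mmp9* had only 2, 2 and 4 UMIs, and *Lhx3* had 0 UMIs, so the label rests on the other markers. Genes of a hindbrain motor nucleus list were mixed. *Tbx20* and *Tbx2* stood at 22.8 and 14.1 CPM, against 0.227 and 0.291 CPM in the other neuronal nuclei. *Fbn2* and *Nos1* stood at 2.01 and 4.69 CPM, against 17.98 and 15.04 CPM, *Tbx3* had 1 UMI and *Phox2a* had 0 UMIs.

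The cholinergic nuclei outside subcluster 31 were not uniform. In subcluster 0, 18 of 42 held *Prph* and 15 held *Tbx20*, with 14 holding both, while 4 held *Isl1*. *Tbx20*, a T-box factor of hindbrain motor neurons, reached 73.4 CPM over the 42 nuclei, against 0.227 CPM in the other neuronal nuclei and 22.8 CPM in subcluster 31. *Prph* reached 154 CPM there. The fast motor neuron gene *Chodl* was at 3.76 CPM with 2 UMIs, *Bcl6* had 0 UMIs and *Calcb* 2 UMIs. The inhibitory genes *Gad1*, *Gad2*, *Slc32a1* and *Slc6a5* stood between 3.76 and 11.3 CPM in these nuclei, against 33.7 CPM or more in the other neuronal nuclei.

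Subcluster 10 gave 9 cholinergic nuclei with the highest summed levels of *Chat* and *Slc5a7* of the 6 sets, 396 and 506 CPM. None of the 9 held a UMI of *Isl1*, *Prph* or *Tbx20*. All 8 of the HET nuclei held *Nos1*, the gene of neuronal nitric oxide synthase, at 1 to 31 UMIs per nucleus with a median of 11, and the 1 WT nucleus held none. *Nos1* came to 858 CPM over the 9 nuclei, against 15.04 CPM in the other neuronal nuclei. *Prima1*, which anchors acetylcholinesterase in the membrane, came to 411 CPM and the choline transporter-like gene *Slc44a5* to 499 CPM, against 8.57 and 60.1 CPM. *Nos1* is a marker of the mesopontine cholinergic neurons. The second marker on that list, *Uts2r*, had 0 UMIs here and only 6 UMIs in all the other neuronal nuclei. It was too sparse to speak for or against that name, and the 9 nuclei are not named.

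In subcluster 3 the 18 cholinergic nuclei held 0 UMIs of *Isl1* and *Tbx20* and 1 UMI of *Prph*. They held *Gad2* at 138 CPM in 10 nuclei and the glycine transporter gene *Slc6a5* at 76.2 CPM in 8, against 69.1 and 83.6 CPM in the other neuronal nuclei. *Gad1* stood at 54.4 against 33.7 CPM and *Slc32a1* at 29.0 against 35.3 CPM. Subcluster 3 was the only one of the 6 sets in which *Gad2* was above its level in the other neuronal nuclei. In subclusters 5 and 1, with 11 and 10 nuclei, *Prph* was held by 2 and 3 and *Isl1* by 1 and 3. *Calca* was at 852 CPM in subcluster 1, from 76 UMIs in 4 of the 10 nuclei. From few UMIs, *Isl1* stood there at 56.0 CPM (5 UMIs), *Ret* at 67.2 CPM (6) and *Lhx4* at 33.6 CPM (3). In subcluster 31 they stood at 67.0, 43.6 and 31.5 CPM. *Prph*, at 44.8 CPM, was below its level in subcluster 31, *Chodl* had 0 UMIs and *Calcb* had 1 UMI.

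**Figure D3:**
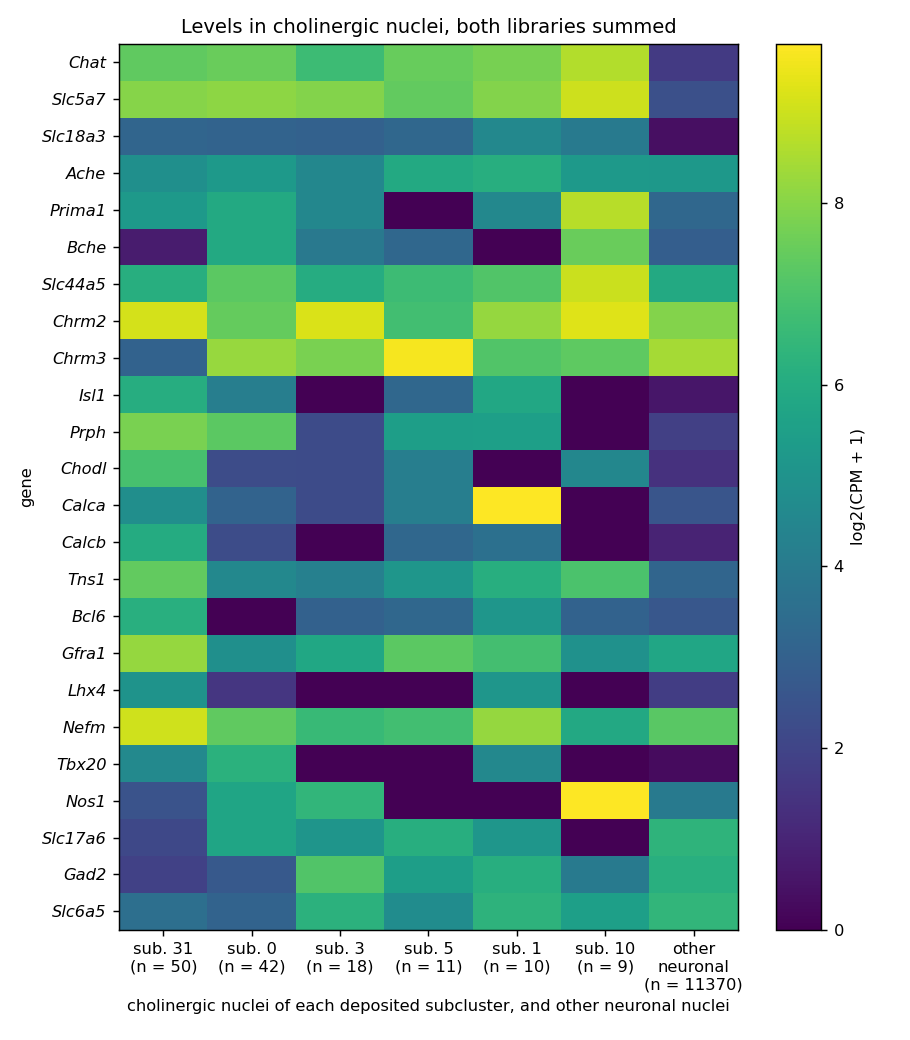
Level of 24 genes, as log2(CPM + 1) in colour, in the cholinergic nuclei of 6 subclusters and in the 11370 other neuronal nuclei, with both libraries summed. *Isl1*, *Chodl*, *Calcb* and *Bcl6* are brightest in subcluster 31, *Tbx20* in subcluster 0, *Gad2* in subcluster 3 and *Nos1* in subcluster 10.

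Of the markers of other cholinergic groups, *Nos1* was high in subcluster 10 as given above, and stood at 52.7 CPM in subcluster 0 and 83.4 CPM in subcluster 3. *Lhx8*, which specifies cholinergic neurons of the forebrain, had 0 UMIs in each, and the medial habenula gene *Gpr151* had 0 UMIs in each. The other neuronal nuclei held only 1 UMI of *Lhx8* and 11 of *Gpr151*, so 0 UMIs cannot speak for or against either group. Of the forebrain list, *Gbx1* stood at 6.70 CPM in subcluster 31, against 4.93 CPM in the other neuronal nuclei, and *Zic4* at 2.68 against 9.46 CPM. The serotonergic genes *Tph2* and *Slc6a4* had 3 and 1 UMIs in subcluster 31 and at most 1 UMI in each other set. *Ddc*, an enzyme of both serotonin and dopamine synthesis on the same list, stood at 30.1 CPM in subcluster 0, in 11 of 42 nuclei, against 9.96 CPM in the other neuronal nuclei.

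Among the receptors, subcluster 31 held *Chrm2*, the M2 muscarinic receptor gene, at 548 CPM against 243 CPM in the other neuronal nuclei, and *Chrm3*, the M3 receptor gene, at 7.38 against 345 CPM. *Chrm3* had UMIs in 5 of the 50 nuclei, and in the other 5 sets it stood between 134 and 777 CPM. *Chrm2* was above its subcluster 31 level in subclusters 10 and 3, at 624 and 591 CPM. In subclusters 0, 5 and 1 it stood between 111 and 291 CPM. The 3 neuronal nicotinic receptor genes with a usable level, *Chrna4*, *Chrna7* and *Chrnb2*, were each at least 1.5-fold lower in subcluster 31, at 2.01, 13.4 and 6.70 CPM against 7.04, 41.6 and 14.0 CPM, where 32.4% of all genes were that much lower. *Chrna9* of the same list was too low in the other neuronal nuclei to be among them. It stood at 10.1 against 1.47 CPM, from 15 UMIs in 3 nuclei. Of the muscle nicotinic receptor genes, *Chrnd* was not analysed here, and *Chrna1*, *Chrne* and *Chrng* had 0 UMIs in subcluster 31. *Lypd6*, a modulator of nicotinic receptors, stood at 55.0 against 11.3 CPM.

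Of the 9 genes that supply choline, 8 had a usable level in subcluster 31, of which 1 was at least 1.5-fold higher and 1 at least 1.5-fold lower, near the 9.68% of all genes higher and below the 32.4% lower. *Pcyt1b*, an enzyme of phosphatidylcholine synthesis, was higher at 70.4 against 36.4 CPM, and *Slc44a3* was lower with 0 UMIs. The choline kinase gene *Chka* stood at 183 against 192 CPM and the choline transporter-like gene *Slc44a1* at 107 against 118 CPM. *Ache* itself stood at 28.2 CPM against 35.7 CPM, *Prima1* at 36.9 against 8.57 CPM and *Bche*, the second cholinesterase, at 0.670 CPM from 1 UMI.

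The 10 genes with the highest ratio of cholinergic over other neuronal nuclei, among 158 with a ratio of at least 2 in each library and at least 50 UMIs, were *Tbx20*, *Gm45368*, *Isl1*, *Prph*, *Chodl*, *Calcb*, *Anxa2*, *Uts2b*, *Spint2* and *Gm20658*. Most of their UMIs came from subcluster 31: all 77 of *Gm45368*, 170 of 171 of *Gm20658* and 1154 of 1171 of *Spint2*. *Tbx20* had 45 of its 79 UMIs outside subcluster 31. *Uts2b*, which encodes a urotensin-related peptide, had 29 UMIs in subcluster 31 and 26 in subcluster 3.

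Over the 34 subclusters, the genes whose log2(CPM + 1) was most like that of *Chat* were *Ldhc* (Pearson r = 0.78), *Gm805* (0.77), *Gm10754* (0.76), *4930525C09Rik* (0.76), *Pitx3* (0.76), *Gm32004* (0.75), *Tmem213* (0.75) and *Rprml* (0.73). *Isl1* had r = 0.82, *Slc5a7* 0.71, *Prph* 0.55, *Slc18a3* 0.37 and *Ache* 0.36. The 34 points share the same 2 libraries and are dominated by subcluster 31. Without it the values were 0.54 for *Isl1*, 0.40 for *Slc5a7*, 0.13 for *Prph*, −0.03 for *Slc18a3*, 0.52 for *Ache* and 0.50 for *Ldhc*.

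Over all nuclei, each of the 6 genes had a lower CPM in the HET than in the WT library. *Isl1* stood at 1.92 CPM in WT (135 UMIs) and 0.846 CPM in HET (56 UMIs), for which the log2 ratio was −1.18 (−1.66 to −0.72). *Prph* was at 8.18 CPM in WT (575 UMIs) and 3.32 CPM in HET (220 UMIs), with a log2 ratio of −1.30 (−1.53 to −1.07). *Slc5a7* was at 10.6 and 7.74 CPM (−0.46, −0.62 to −0.29), *Chat* at 5.73 and 4.94 CPM (−0.21, −0.43 to −0.00021), *Ache* at 36.5 and 29.8 CPM (−0.29, −0.38 to −0.21) and *Slc18a3* at 0.626 and 0.544 CPM (−0.20, −0.88 to 0.47).

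At a threshold of 1.5-fold, 2 of the 6 genes were lower in HET and 0 higher. Over all 21997 genes with at least 20 UMIs, 15.3% were that much lower and 10.9% that much higher, which is 3369 and 2407 genes, and with the median log2 ratio of genes set to 0 they became 2526 and 2913. The median log2 ratio was −0.09, against −0.37 for the 6 genes. Of 16 motor neuron list genes with at least 20 UMIs, 5 were lower and 0 higher: *Isl1*, *Prph*, *Chodl* (−1.40), *Calcb* (−1.28) and *Lhx4* (−0.91). Among hindbrain motor nucleus genes, *Phox2a*, *Tbx2* and *Tbx3* had log2 ratios of −0.67, −0.86 and −0.89, past 1.5-fold lower, while *Tbx20* had −0.19, *Fbn2* 0.02 and *Nos1* 0.40. Most UMIs of *Tbx3* lay outside neurons, with 8 in WT and 12 in HET within the neuronal clusters. *Bche*, at 0.62, was the only one of the 4 hydrolysis genes past 1.5-fold, and 0 of the 4 measured muscarinic receptor genes passed it in either direction.

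The libraries differed in how many nuclei of subcluster 31 they held. There were 44 in WT, or 0.475% of its nuclei (0.345 to 0.637), and 9 in HET, or 0.0998% (0.0456 to 0.189). The cholinergic nuclei outside subcluster 31 numbered 47 and 45, or 0.508% (0.373 to 0.674) and 0.499% (0.364 to 0.667). A subcluster that comes mostly from 1 library may reflect what tissue was dissected, and this cannot be told apart from genotype here. Together, 0.95% (0.763 to 1.17) of WT and 0.599% (0.450 to 0.780) of HET nuclei were cholinergic.

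Leaving out subcluster 31, a choice made after the values had been seen, turned the sign for 4 of the 6 genes. The WT level of *Chat* came to 3.0 CPM and the HET level to 4.23 CPM, with a log2 ratio of 0.50 (0.23 to 0.76). *Slc5a7* came to 6.26 and 6.85 CPM, with 0.13 (−0.06 to 0.32). *Isl1* was at 0.667 CPM in both libraries, and *Slc18a3* had a log2 ratio of 0.15 (−0.58 to 0.88). *Prph* kept its sign at −0.62 (−0.90 to −0.35) and was then the only one of the 6 past 1.5-fold, where 15.4% of all genes were lower and 10.9% higher. Of its UMIs outside subcluster 31, 287 in WT and 178 in HET, 39 lay in neuron.6, whose part in this value was not tested. Subcluster 22, which has nearly the same number of nuclei and of UMIs as neuron.6, held 121 WT and 5 HET nuclei. With each cluster given the same weight in both libraries, *Prph* stood at −0.32 over all nuclei, under 1.5-fold. *Ache* stood at −0.30 (−0.39 to −0.21) without subcluster 31. Of 16 motor neuron list genes, 4 were then past 1.5-fold lower and 0 higher, with a median log2 ratio of −0.22. Over all nuclei that median was −0.35.

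Within subcluster 31, *Chat* ran from 0 to 11 UMIs per nucleus with a median of 4 in the 44 WT nuclei, and from 2 to 10 with a median of 5 in the 9 HET nuclei. *Slc5a7* ran from 0 to 19 with a median of 7.5 in WT and from 2 to 9 with a median of 7 in HET. The ranges of the libraries overlapped for both genes.

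*Isl1* ran from 0 to 8 UMIs with a median of 2 in WT and from 0 to 3 with a median of 1 in HET. *Prph* ran from 0 to 17 with a median of 5.5 in WT and from 0 to 11 with a median of 4 in HET. The log2 ratios of CPM were 0.42 (−0.07 to 0.88) for *Chat*, 0.06 (−0.37 to 0.46) for *Slc5a7*, 0.12 (−1.29 to 1.32) for *Ache*, −0.45 (−1.45 to 0.43) for *Isl1* and −0.33 (−0.84 to 0.14) for *Prph*. *Slc18a3* had 11 UMIs in WT and 1 in HET, a log2 ratio of −1.01 (−6.44 to 1.77). Of the 5 genes with at least 20 UMIs there, 0 passed 1.5-fold in either direction, where 12.4% of genes were higher and 27.7% lower in HET. The log2 ratio over all nuclei, −1.30 for *Prph* and −1.18 for *Isl1*, lay outside the counting interval for *Prph* and inside it for *Isl1*. These intervals leave out the spread between nuclei and between mice, and whether the levels differ within such nuclei was not tested.

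**Figure D4:**
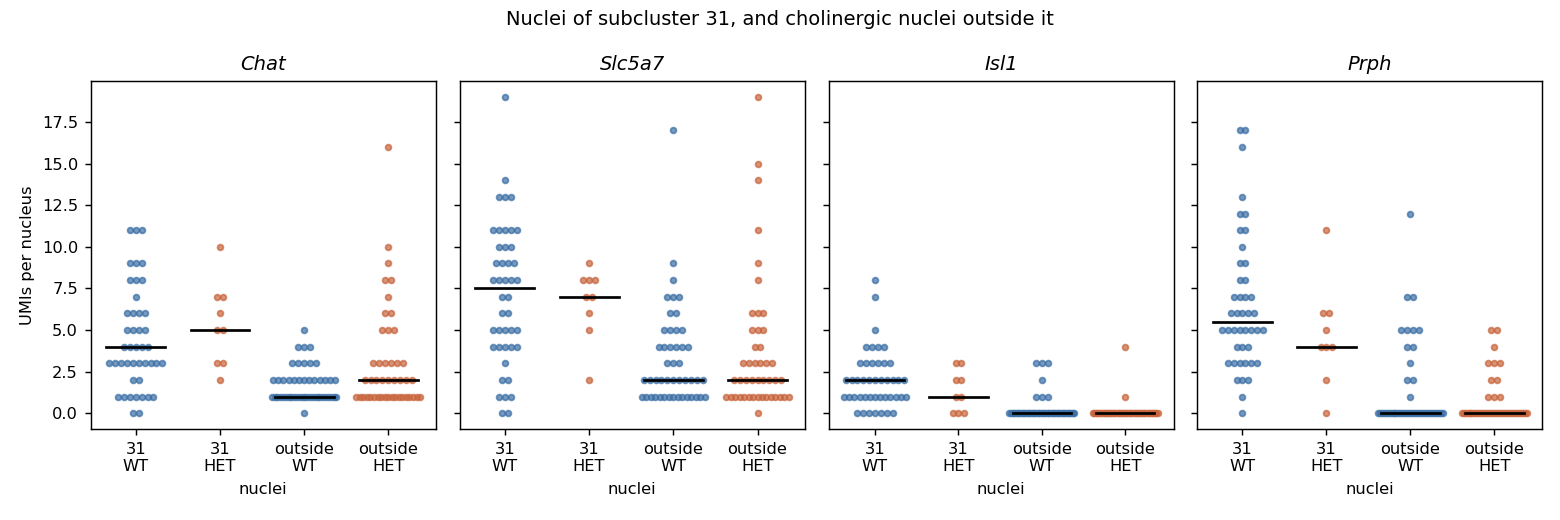
UMIs per nucleus of *Chat*, *Slc5a7*, *Isl1* and *Prph* in each nucleus of subcluster 31 (44 WT, 9 HET) and each cholinergic nucleus outside it (47 WT, 45 HET). Each point is a nucleus and each line a median: for *Prph* 5.5 and 4 in subcluster 31, and 0 outside it in both libraries.

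Outside subcluster 31, the cholinergic nuclei were chosen by their counts of *Chat*, *Slc5a7* and *Slc18a3*, so the values of those genes are a description. *Chat* was at 136 CPM in the 47 WT nuclei and 247 CPM in the 45 HET nuclei, with a log2 ratio of 0.86 (0.46 to 1.27), and *Slc5a7* at 261 and 297 CPM (0.19, −0.14 to 0.51). The 8 HET nuclei of subcluster 10 supplied 52 of the 140 HET UMIs of *Chat*. Without subclusters 31 and 10, *Chat* had a log2 ratio of 0.53 (0.08 to 0.98) and *Slc5a7* one of −0.25 (−0.63 to 0.12).

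*Prph*, which was not used in the rule, had 62 UMIs in WT nuclei and 30 in HET nuclei outside subcluster 31, or 103 and 53.0 CPM. That is a log2 ratio of −0.96 (−1.64 to −0.31), and −0.66 (−1.34 to −0.01) without subcluster 10 as well. It was held by 13 of the 47 WT and 11 of the 45 HET nuclei, and reached up to 12 UMIs in WT and up to 5 in HET. The make-up of these nuclei differed between the libraries as well: subcluster 3 gave 13 of the WT and 5 of the HET nuclei, and all 4 inhibitory genes were lower in HET, with log2 ratios from −3.20 to −1.57 and a median of −2.60. Their part in the values of *Prph* and *Chat* was not tested. *Isl1* had 14 and 5 UMIs (−1.40, −3.22 to 0.16), and *Ache* 28 and 17 (−0.63, −1.59 to 0.29). Of the 4 genes with at least 20 UMIs, *Chat* was past 1.5-fold higher and *Prph* and *Ache* past 1.5-fold lower, where 11.0% of genes were higher and 21.8% lower. *Chat* and *Slc5a7* were used to choose these nuclei, so they are not read against those shares.

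*Nos1*, *Prima1* and *Bche* were also higher in the HET nuclei outside subcluster 31. *Nos1* had 35 UMIs in WT and 136 in HET, *Prima1* 20 and 79, and *Bche* 10 and 52. Subcluster 10 supplied 117 of the 136 HET UMIs of *Nos1* and 56 of the 79 of *Prima1*. Its 9 cholinergic nuclei held 25 UMIs of *Bche*. The nuclei of that subcluster came to 298 in WT and 313 in HET, of which 1 (0.336%, 0.00850 to 1.86) and 8 (2.56%, 1.11 to 4.97) were cholinergic.

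**Figure D5:**
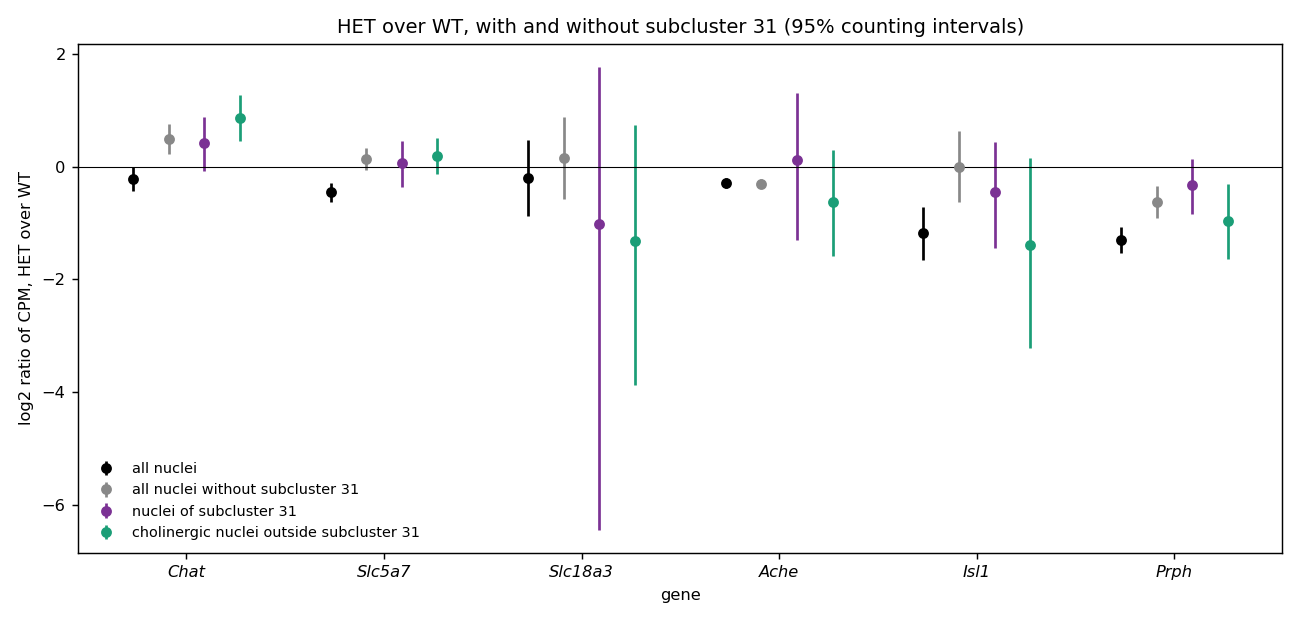
Log2 ratio of CPM, HET over WT, for the 6 genes in all nuclei (black), all nuclei without subcluster 31 (grey), the nuclei of subcluster 31 (purple) and the cholinergic nuclei outside it (green), with 95% counting intervals. *Isl1* goes from −1.18 over all nuclei to 0.0014 without subcluster 31, while *Prph* goes from −1.30 to −0.62.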

How the data were processed

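Single-nucleus RNA-seq of the brainstem of 1 WT and 1 HET mouse was analysed. The authors deposited counts, that is UMIs per gene and nucleus without normalization, made with Cell Ranger (version not given in the sources used here) on mm10 and filtered in Seurat 4.1 per the submitters' processing notes. Their methods removed nuclei with fewer than 1000 genes or more than 15% mitochondrial genes. The deposited percent values (mitochondrial UMIs of a nucleus), the deposited doublet score, for which no caller is named, and the deposited clusters, subclusters (SCT resolution 0.8) and reference label were used as given. All 18281 deposited nuclei carry the call Singlet. Clustering by the authors left out mitochondrial, hemoglobin and some other genes.

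UMIs were summed over nuclei and divided by the total of the set (CPM). Log2 ratios of CPM carry exact conditional intervals, CPM exact Poisson intervals and shares Clopper-Pearson intervals, at 95%. These cover counting error only. A share of 0 allows 3 counts of the total. Thinned shares are the share awaited when 1000 UMIs are drawn from each nucleus, and no nucleus was too shallow. Fold thresholds were 1.5 with at least 20 UMIs. A list gene was used in subcluster 31 if at least 3 UMIs were awaited from its level in other neuronal nuclei. Correlations used a pseudocount of 1 CPM.

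The members and lists were chosen with earlier results of these data known. Named genes are the 6 members, list members, the 10 genes with the highest ratio in cholinergic over other neuronal nuclei (at least 50 UMIs, ratio at least 2 in each library) and the 8 most like *Chat* over subclusters (at least 100 UMIs). The scripts were tested on simulated counts. Figures were drawn with matplotlib 3.10.9 and values computed with scipy 1.17.1, pandas 2.3.3 and numpy 2.4.6 under Python 3.11.15. Genes that led single sets were picked after their values were seen. The levels of some list genes are not reported here.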

Additional observations from a re-analysis of the deposited data

How the results depend on the processing

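No paired analysis was possible because each genotype has 1 library, so no library could be left out either. Leaving out subcluster 31, or 31 and 10, was chosen after seeing the data. The total of cholinergic nuclei in each library stayed within 1.5 times, and the number of subclusters that hold them at 6, under each alternative run: both *Chat* and *Slc5a7*, at least 3 UMIs of the 3 genes together, nuclei with at least 2000 UMIs (nuclei only), and no nuclei with the 5% highest doublet scores. Single subclusters moved more: without the highest scores 31 went from 50 to 26 (HET 9 to 2) and 10 from 9 to 5, and with at least 3 UMIs 5 went from 11 to 19. Of the log2 ratios over all nuclei, 10 changed sign, 7 left their counting interval with the same sign and 25 did neither. With the mean over nuclei of CPM, in which a nucleus rich in UMIs counts no more than any other, the values were 0.024 for *Chat*, −0.13 for *Slc5a7*, 0.070 for *Slc18a3*, −0.45 for *Isl1* and −0.76 for *Prph*. With each cluster given the same weight in both libraries they were 0.56, 0.20, 0.0017, −0.18 and −0.32 in the same order. Scaling the median of all genes to 0, a shift of −0.10, gave −0.19 for *Ache*. Without the highest doublet scores *Slc18a3* stood at 0.12. Without subcluster 31 the values were 0.50 for *Chat*, 0.13 for *Slc5a7*, 0.15 for *Slc18a3*, 0.0014 for *Isl1* and −0.62 for *Prph*. In cholinergic nuclei, dropping subclusters 31 and 10 gave −0.25 for *Slc5a7*, from 0.17, and −0.66 for *Prph*, from −1.05. The cause was not tested. Genes at least 1.5-fold higher in HET numbered 2407, or 1355 with at least 100 UMIs and 3871 with no minimum, as fewer or more genes were compared. Thinning to 1000 UMIs lowered by construction the share of nuclei with a UMI, to 0.319% for *Chat*, 0.642% for *Slc5a7*, 0.0770% for *Slc18a3*, 3.47% for *Ache*, 0.0914% for *Isl1* and 0.429% for *Prph*. With 80 UMIs of *Slc18a3* and 191 of *Isl1* in all, depth limits both.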

Other observations

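Some nuclei held *Isl1* and *Prph* without the cholinergic genes, and were singled out after their values had been seen. In the HET library, 2 nuclei of neuron.1 had 13 and 11 UMIs of *Prph* and 12 and 3 UMIs of *Isl1*, with 0 UMIs of *Chat*, *Slc5a7* and *Slc18a3*. They also held 36 and 25 UMIs of *Piezo2*, a mechanically gated channel of sensory neurons, 7 and 4 of *Avil* and 2 and 1 of *Pou4f1*.

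A few genes that led a set of cholinergic nuclei rested on 1 or 2 nuclei. In subcluster 31, *Gm21188* had its 35 UMIs in 1 HET nucleus and *Zg16* its 133 UMIs in 2 WT nuclei. In subcluster 0, *Car5a* had 31 of its 35 UMIs in 1 nucleus. In subcluster 10, *Svopl* had 39 of its 43 UMIs and *Egflam* 33 of its 50 in 1 nucleus, while *Nos1* was held by 8 of the 9 nuclei and *Prima1* by 6.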
